A study of Mus musculus with 40 samples.

Results

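The AP-1 transcription factors studied here were 10 genes, chosen by symbol from the 55414 genes of a deposited expression table. They were the FOS subunits Fos, Fosb, Fosl1 and Fosl2, the JUN subunits Jun, Junb and Jund, and the related factors Atf3, Maff and Batf3. Each symbol matched 1 row of the table. RNA was sequenced from mpkCCD cells, an immortalized line of the mouse kidney collecting duct. All groups were grown on permeable supports in complete medium for 4 days and then for 3 days in a simple medium that held 50 nM dexamethasone. For those last 72 hours every group also received 0.1 nM dDAVP, a synthetic agonist of the vasopressin V2 receptor. The groups were unmodified control clones (11 libraries) and cells labelled ATF1-KO (5 libraries), ATF1/CREB1-KO (3 libraries) and ATF1/CREB1/CREM-KO (3 libraries). Library numbers in the labels form 3 consecutive runs, each of which joined 1 knockout label with its own control clones. Run 1 held control clones 1 to 5 and ATF1-KO, run 2 held control clones 6 to 8 and ATF1/CREB1-KO, and run 3 held ATF1/CREB1/CREM-KO with control clones 9 to 11. No label calls a run a batch, and each knockout was compared with the control clones of its own run. The labels also do not say how the genes were disrupted, or whether the libraries of 1 label came from separate clones or cultures. The p-values therefore measure only the spread between these libraries, which may be technical.

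AP-1 is a dimer of basic leucine zipper (bZIP) proteins. JUN proteins pair with each other or with FOS proteins, whereas FOS proteins need a JUN partner, and the pairs bind the element TGACTCA. Fos, Fosb, Jun, Junb and Atf3 are classic early response genes, which growth factors, stress and cyclic AMP switch on within minutes. Fosl1 (FRA-1) and Fosl2 (FRA-2) are usually induced later and last longer, and Jund is made more constantly. ATF1, CREB1 and CREM form the CREB family of bZIP factors. They bind the cyclic AMP response element TGACGTCA or its shorter form TGACG, and the Fos promoter is a textbook CREB target. In the collecting duct, vasopressin acts through the V2 receptor and cyclic AMP, and the study asked how the CREB family takes part in vasopressin's control of Aqp2, the gene of the water channel aquaporin-2.

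The promoter windows of 5 of these genes are shown first, since their promoters are where CREB-family elements would lie. Each runs from 250 bases before to 50 bases after the annotated start, 5′ to 3′ on the strand of the gene, from RefSeq on GRCm38.p6. Capitals mark a match to TGACGTCA, to TGACG, or to TGACATCA, the variant found in the Jun promoter, on either strand (a match on the other strand of TGACG reads CGTCA).
Fos, chr12:85473640-85473939, plus strand: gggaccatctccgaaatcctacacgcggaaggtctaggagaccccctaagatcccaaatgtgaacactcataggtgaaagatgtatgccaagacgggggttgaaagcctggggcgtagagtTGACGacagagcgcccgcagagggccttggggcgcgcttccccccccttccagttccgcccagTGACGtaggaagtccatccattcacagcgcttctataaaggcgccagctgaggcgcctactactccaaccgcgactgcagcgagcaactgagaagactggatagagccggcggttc
Fosl2, chr5:32136222-32136521, plus strand: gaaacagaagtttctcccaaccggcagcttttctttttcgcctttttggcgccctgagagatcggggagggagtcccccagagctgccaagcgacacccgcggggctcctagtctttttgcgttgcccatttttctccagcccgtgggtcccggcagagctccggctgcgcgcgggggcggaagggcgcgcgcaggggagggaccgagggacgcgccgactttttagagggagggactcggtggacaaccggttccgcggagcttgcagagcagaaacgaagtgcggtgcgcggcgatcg
Jun, chr4:95052173-95052472, minus strand: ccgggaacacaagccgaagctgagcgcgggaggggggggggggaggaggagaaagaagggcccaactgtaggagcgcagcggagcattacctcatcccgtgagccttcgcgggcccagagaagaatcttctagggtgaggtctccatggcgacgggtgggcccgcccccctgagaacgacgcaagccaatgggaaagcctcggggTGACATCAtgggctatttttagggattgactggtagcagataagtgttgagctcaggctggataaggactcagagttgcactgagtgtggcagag
Atf3, chr1:191183284-191183583, minus strand: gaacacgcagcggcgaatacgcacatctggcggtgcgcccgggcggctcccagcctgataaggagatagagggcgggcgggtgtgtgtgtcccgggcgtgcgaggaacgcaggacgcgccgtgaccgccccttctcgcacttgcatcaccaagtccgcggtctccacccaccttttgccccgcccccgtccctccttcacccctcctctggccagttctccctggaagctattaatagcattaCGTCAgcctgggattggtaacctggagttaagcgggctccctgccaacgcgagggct
Maff, chr15:79347270-79347569, plus strand: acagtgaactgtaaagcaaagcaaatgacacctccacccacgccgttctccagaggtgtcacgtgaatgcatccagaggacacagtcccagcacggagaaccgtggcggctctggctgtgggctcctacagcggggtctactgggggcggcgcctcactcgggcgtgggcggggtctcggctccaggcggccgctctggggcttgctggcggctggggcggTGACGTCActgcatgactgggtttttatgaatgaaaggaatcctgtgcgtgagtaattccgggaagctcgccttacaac
The Fos window held TGACG at 129 to 125 bases and again at 66 to 62 bases before the start. The Jun window held TGACATCA at 45 to 38 bases before the start. In Atf3, TGACG lay on the other strand, 7 to 3 bases before the start. The Maff window held the full TGACGTCA at 29 to 22 bases before the start, the only full element among the members. No searched motif was in the Fosl2 window. Of the 9 members in the promoter table, 5 held TGACG in at least 1 window (Fos, Fosb, Junb, Atf3 and Maff), and none held TGACTCA. Maff has 3 annotated windows, of which another held both TGACG and TGACATCA. Fosl1 was not in the table. Among all 32851 windows of the same length, 20.8% held TGACG, 1.79% held TGACGTCA, which contains TGACG on both strands, 3.62% held TGACATCA and 5.20% held TGACTCA. These matches describe letters in a window and do not show that a factor bound there.

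The values are TPM (transcript abundances), which scale every library to the same total and allow for transcript length, so levels of different genes can be set side by side. Read depth is unknown from TPM; 17296 to 20703 genes were above 0 per library. The 83 cytosolic ribosomal protein genes took 7.05% to 15.1% of all TPM in run 2 (6 libraries) and 2.61% to 4.03% in runs 1 and 3 (16 libraries). Within run 2, control clones 6 to 8 had 14.2% to 15.1%, whereas ATF1/CREB1-KO replicates 1, 2 and 3 had 13.0%, 12.5% and 7.05%. The mean level of the targeted genes was lower in most cases without being lost. Atf1 was at 26.6 TPM against 42.2 TPM in ATF1-KO and its own-run control clones, Creb1 at 3.39 against 5.55 TPM in ATF1/CREB1-KO, and Creb1 at 18.7 against 37.7 TPM in ATF1/CREB1/CREM-KO. Crem, at 30.5 against 22.7 TPM, was not lower in ATF1/CREB1/CREM-KO, so that its loss could not be checked from these totals per gene. Atf1 overlapped its control clones in ATF1/CREB1-KO, at 15.06 to 23.73 against 23.32 to 26.22 TPM. It also overlapped them in ATF1/CREB1/CREM-KO, at 23.67 to 40.81 against 39.78 to 40.52 TPM. The loss of Atf1 in these 2 groups could thus not be checked either. In ATF1-KO the Atf1 ranges nearly touched, at 17.51 to 37.79 against 37.82 to 48.95 TPM. A lower total per gene does not by itself show a loss. Summed markers of principal cells were at 539.77 to 3054.16 TPM, while those of the proximal tubule reached at most 25.45 TPM, those of immune cells 13.56 TPM, those of the thick limb and distal tubule 4.40 TPM, those of intercalated cells 2.39 TPM, those of fibroblasts 1.06 TPM and those of endothelium 0.52 TPM. In bulk RNA, fewer cells that express a gene and less of its RNA per cell cannot be told apart.

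In libraries labelled ATF1/CREB1/CREM-KO the FOS subunits moved in opposite directions. Fos fell to 53.3% of its own-run control mean, while Fosl1 rose to 248% and Fosl2 to 159%. Among JUN subunits, Jun stood at 52.1% and Jund at 136% of control, both with every knockout library outside the control range but without passing the test. Here a gene is called changed where limma's adjusted p is under 0.05 over all genes tested. Of the 10 members, 9 reached a mean of 1 TPM and were tested in each comparison, and Fosb did not. In ATF1/CREB1/CREM-KO 3 of the 9 were called, 2 higher and 1 lower, where 9.17% of the 13258 genes tested were called (3.91% higher, 5.26% lower). In 6 of the 9, 3 above and 3 below, the knockout libraries did not overlap the control clones, where 34.6% of all genes tested did not overlap (14.5% above, 20.2% below). The members' median log2 change was -0.34, against -0.05 over all genes tested. In ATF1-KO 0 of the 9 were called and 0 were free of overlap, where 0% of 13318 genes were called and 1.30% did not overlap. At an unadjusted p under 0.05, 7.61% of all genes passed there, and among the members Fosl1 did (p = 0.00458). In ATF1/CREB1-KO 0 of the 9 were called, where 0.0715% of 12579 genes were called and 9.53% had an unadjusted p under 0.05, among the members Fosl1 (p = 0.0122). There 2 of the 9 did not overlap, Fosl1 above and Junb below, where 19.0% of all genes did not.

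**Figure D1:**
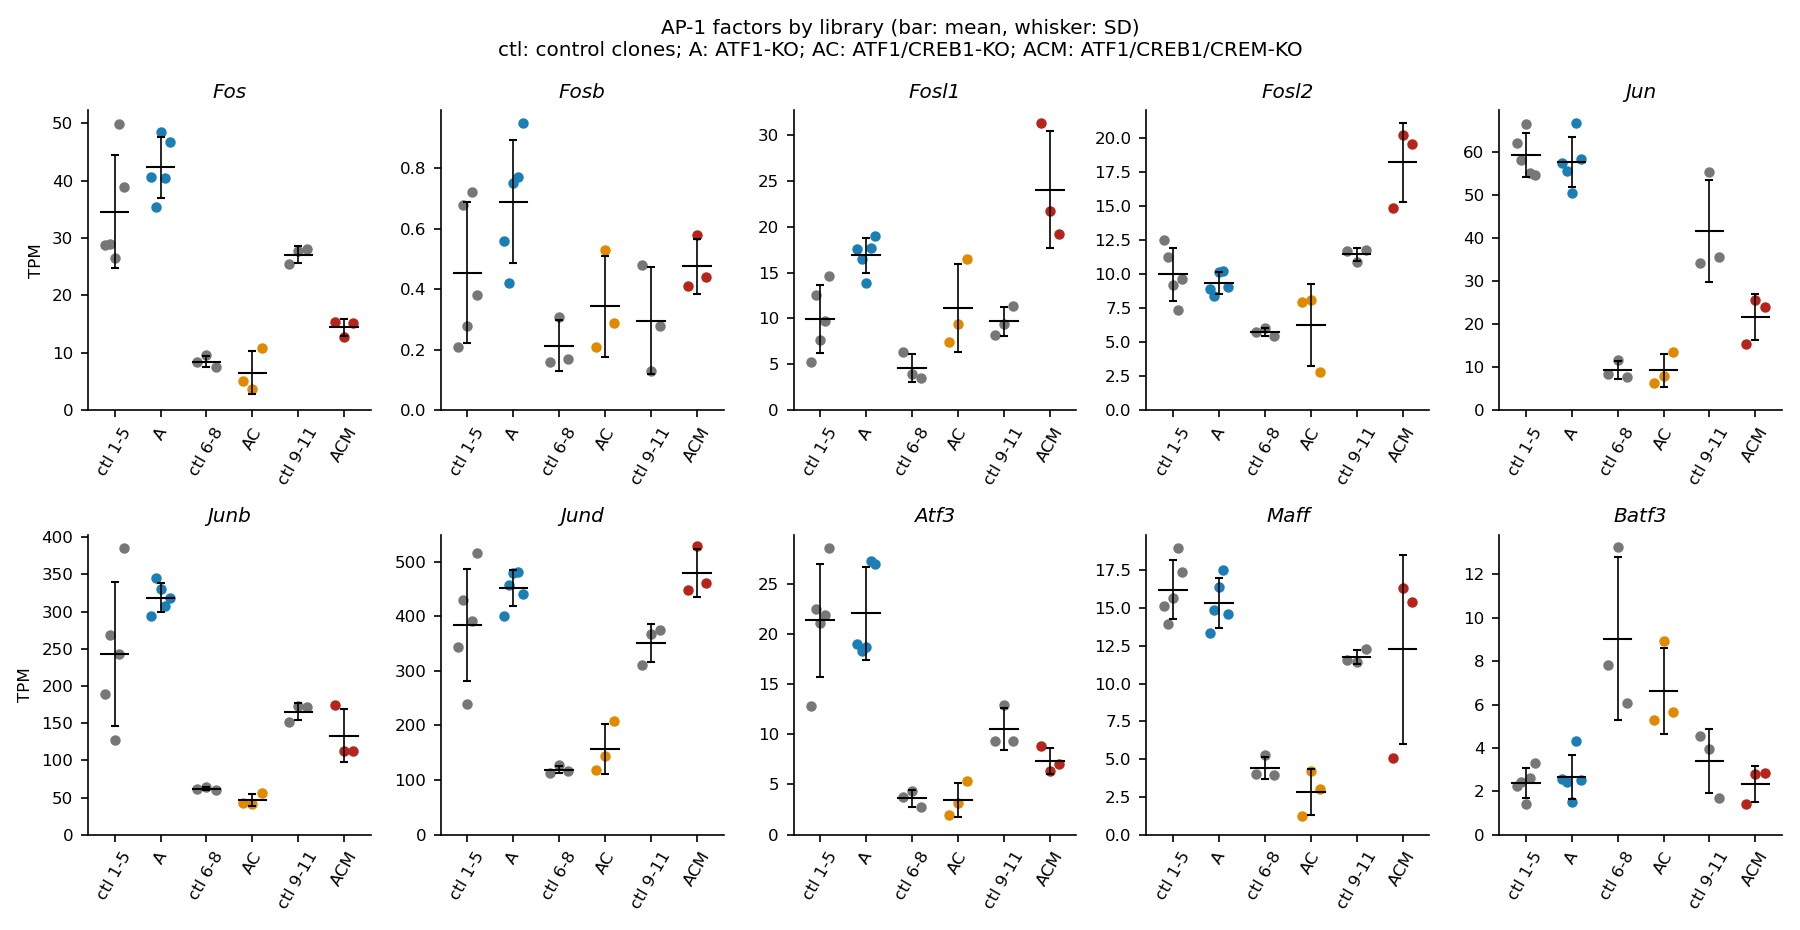
TPM of each of the 10 AP-1 factors in all 22 libraries, in pairs of control clones (ctl, grey) and the knockout of the same run, with a bar at the mean and a whisker of 1 SD. In the ACM group (ATF1/CREB1/CREM-KO) Fos lies between 12.80 and 15.34 TPM, below control clones 9 to 11, while Fosl1 lies between 19.19 and 31.25 TPM, above them; the control clones of run 2 are low in every gene except Batf3.

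Fos (ENSMUSG00000021250), the founding FOS subunit and an early response gene, was at 25.53, 27.67 and 28.17 TPM in control clones 9 to 11. In ATF1/CREB1/CREM-KO it was at 15.34, 12.80 and 15.19 TPM. The highest knockout library was thus well under the lowest control clone, and the spread within either group was small. Fos fell by 0.87 on the log2(TPM + 1) scale, a scale that understates the change of low genes (SE 0.11, 95% interval -1.14 to -0.60, limma adjusted p = 0.00889). The call was lost with fewer libraries, without control clone 9 (adjusted p = 0.0524) or control clone 11 (adjusted p = 0.0535), at changes of -0.91 and -0.84. In ATF1/CREB1-KO Fos was at 5.06, 3.80 and 10.83 TPM, against 8.37, 9.58 and 7.54 TPM in control clones 6 to 8. Replicates 1 and 2 lay below these control clones and replicate 3 above them, and replicate 3 is also the library with the low ribosomal share, whose part in the value was not tested. The log2 change was -0.43 (SE 0.33, adjusted p = 0.707). In ATF1-KO Fos was at 40.57, 35.37, 48.41, 40.51 and 46.71 TPM, and in control clones 1 to 5 at 28.72, 29.04, 26.50, 49.88 and 38.85 TPM. The 2 groups overlapped, with a log2 change of 0.31 (SE 0.16, adjusted p = 0.697).

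Fosl1 (ENSMUSG00000024912), which encodes FRA-1, a FOS subunit without the strong activation domain of FOS, had a higher mean than its control clones in each of the 3 comparisons. In ATF1/CREB1/CREM-KO it was at 31.25, 21.66 and 19.19 TPM, against 8.22, 9.43 and 11.38 TPM in control clones 9 to 11. All 3 knockout libraries stood clear of the control clones, and the gene rose by 1.21 on the log2 scale (SE 0.21, limma adjusted p = 0.0197). This call was lost, at adjusted p-values of 0.0570 to 0.0898 and changes of 1.11 to 1.32, without control clone 9, 10 or 11 or without knockout replicate 2. In ATF1/CREB1-KO Fosl1 was at 7.42, 9.45 and 16.49 TPM, and in control clones 6 to 8 at 6.39, 3.99 and 3.50 TPM. Every knockout library was above every control clone, by the least in replicate 1 and by the most in replicate 3. The log2 change of 1.07 (SE 0.32, 95% interval 0.31 to 1.83) did not pass the test within the run (adjusted p = 0.398). It passed when all 22 libraries shared 1 estimate of the spread (adjusted p = 0.0433). That was the only 1 of 14 alternatives with a call, and the adjusted p-values reached 0.975. In ATF1-KO Fosl1 was at 17.55, 16.46, 13.89, 17.67 and 18.95 TPM, and in control clones 1 to 5 at 5.28, 12.57, 7.70, 9.69 and 14.61 TPM. Here 4 of the 5 knockout libraries were above all control clones, replicate 3 being the exception. The log2 change was 0.77 (SE 0.22, adjusted p = 0.555).

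Fosl2 (ENSMUSG00000029135) encodes FRA-2, the other late FOS subunit. It was at 14.87, 20.21 and 19.52 TPM in ATF1/CREB1/CREM-KO and at 11.69, 10.87 and 11.76 TPM in control clones 9 to 11. The groups did not overlap, and Fosl2 rose by 0.62 on the log2 scale (SE 0.14, limma adjusted p = 0.0467). The adjusted p is close to the threshold, and it was 0.130 to 0.150 without control clone 9, 10 or 11 or without knockout replicate 2 or 3. In ATF1/CREB1-KO it was at 7.95, 8.08 and 2.82 TPM, against 5.75, 6.04 and 5.42 TPM, so that replicates 1 and 2 lay above the control clones and replicate 3 below them. In ATF1-KO it ranged from 8.36 to 10.26 TPM within the control range of 7.37 to 12.47 TPM. The log2 changes were 0.01 in ATF1/CREB1-KO (adjusted p = 0.995) and -0.07 in ATF1-KO (adjusted p = 0.905). Fosb (ENSMUSG00000003545), the close relative of Fos, was at 0.13 to 0.95 TPM over all 22 libraries and stayed below the filter. With no filter its log2 changes were 0.22 in ATF1-KO, 0.14 in ATF1/CREB1-KO and 0.19 in ATF1/CREB1/CREM-KO, with limma adjusted p-values of 0.804, 0.766 and 0.490.

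**Figure D2:**
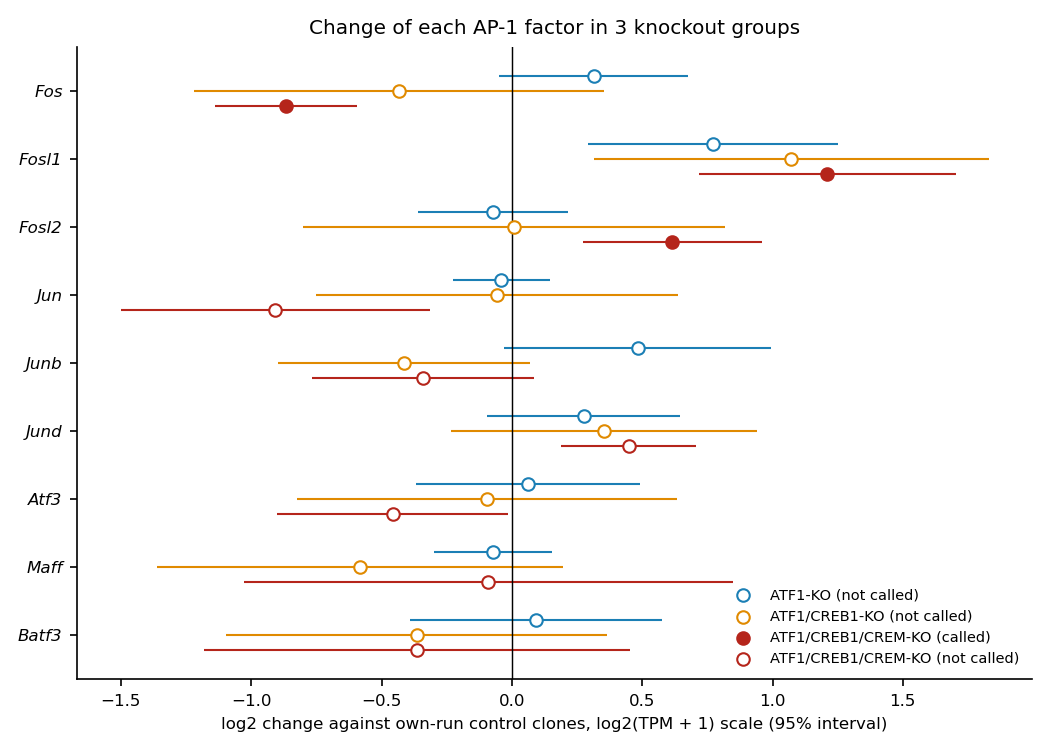
Log2 change of each tested AP-1 factor against the control clones of the same run (x axis, log2(TPM + 1) scale), with 95% intervals that are not adjusted for the number of genes; filled points are called. Only Fos, Fosl1 and Fosl2 in ATF1/CREB1/CREM-KO are filled, Fos to the left at -0.87 and Fosl1 and Fosl2 to the right at 1.21 and 0.62, while the intervals of Jun, Jund and Atf3 in that group also leave out 0.

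Shares of the FOS family, computed within each library after the single values had been seen and given without a test, do not depend on scaling between libraries. The shares of a family sum to its whole, so a higher share of 1 subunit lowers the others. Fos made up 55.6%, 57.5% and 54.6% of FOS-family TPM in control clones 9 to 11. In ATF1/CREB1/CREM-KO it made up 24.8%, 23.2% and 28.0%. Fos was thus the most abundant FOS subunit of these control clones but not of any knockout library in run 3, where Fosl1 led in replicates 1 and 2, with 50.5% and 39.2%, and Fosl2 led in replicate 3, with 35.9% against 35.3% for Fosl1. The Fosl1 share in control clones 9 to 11 was 19.9% ± 2.09 (SD, n = 3). The total of the family was not lower: it was 57.2 TPM ± 4.11 (SD, n = 3) in ATF1/CREB1/CREM-KO against 48.5 TPM ± 2.86 (SD, n = 3). In ATF1/CREB1-KO the Fos share was 24.5%, 17.4% and 35.6%, against 40.5%, 48.1% and 45.3% in control clones 6 to 8. The Fosl1 share there was 35.9%, 43.2% and 54.2%, against 30.9%, 20.0% and 21.1%. Neither share overlapped between the groups of run 2. Of all single genes tested there, 19.0% did not overlap, and no such rate was computed for shares. Replicate 3, which stood apart in TPM, lay on the same side as the other 2 replicates in both shares. It did not in the Fosl2 share, which was 38.5%, 37.0% and 9.27%, against 27.8%, 30.3% and 32.6%. In ATF1-KO the Fos share was 61.0% ± 3.19 (SD, n = 5), against 62.3% ± 7.06 (SD, n = 5), and the groups overlapped. The ratio of Fosl1 to Fos was 1.66 ± 0.388 in ATF1/CREB1/CREM-KO against 0.356 ± 0.0430 (SD, n = 3 each), and 1.83 ± 0.574 in ATF1/CREB1-KO against 0.548 ± 0.188 (SD, n = 3 each). In ATF1-KO it was 0.405 ± 0.0695 against 0.296 ± 0.110 (SD, n = 5 each), with overlap. Other ratios were computed too, likewise without a test. In run 3, Fosl2 to Fos and Jund to Jun did not overlap, whereas Fos to Jun and Atf3 to Batf3 did. Fos to Jun was 0.71 ± 0.25 there against 0.68 ± 0.16 in control clones (SD, n = 3 each). In run 2, Jund to Jun and Fos to Jun did not overlap, whereas Fosl2 to Fos and Atf3 to Batf3 did. All of these overlapped in ATF1-KO.

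**Figure D3:**
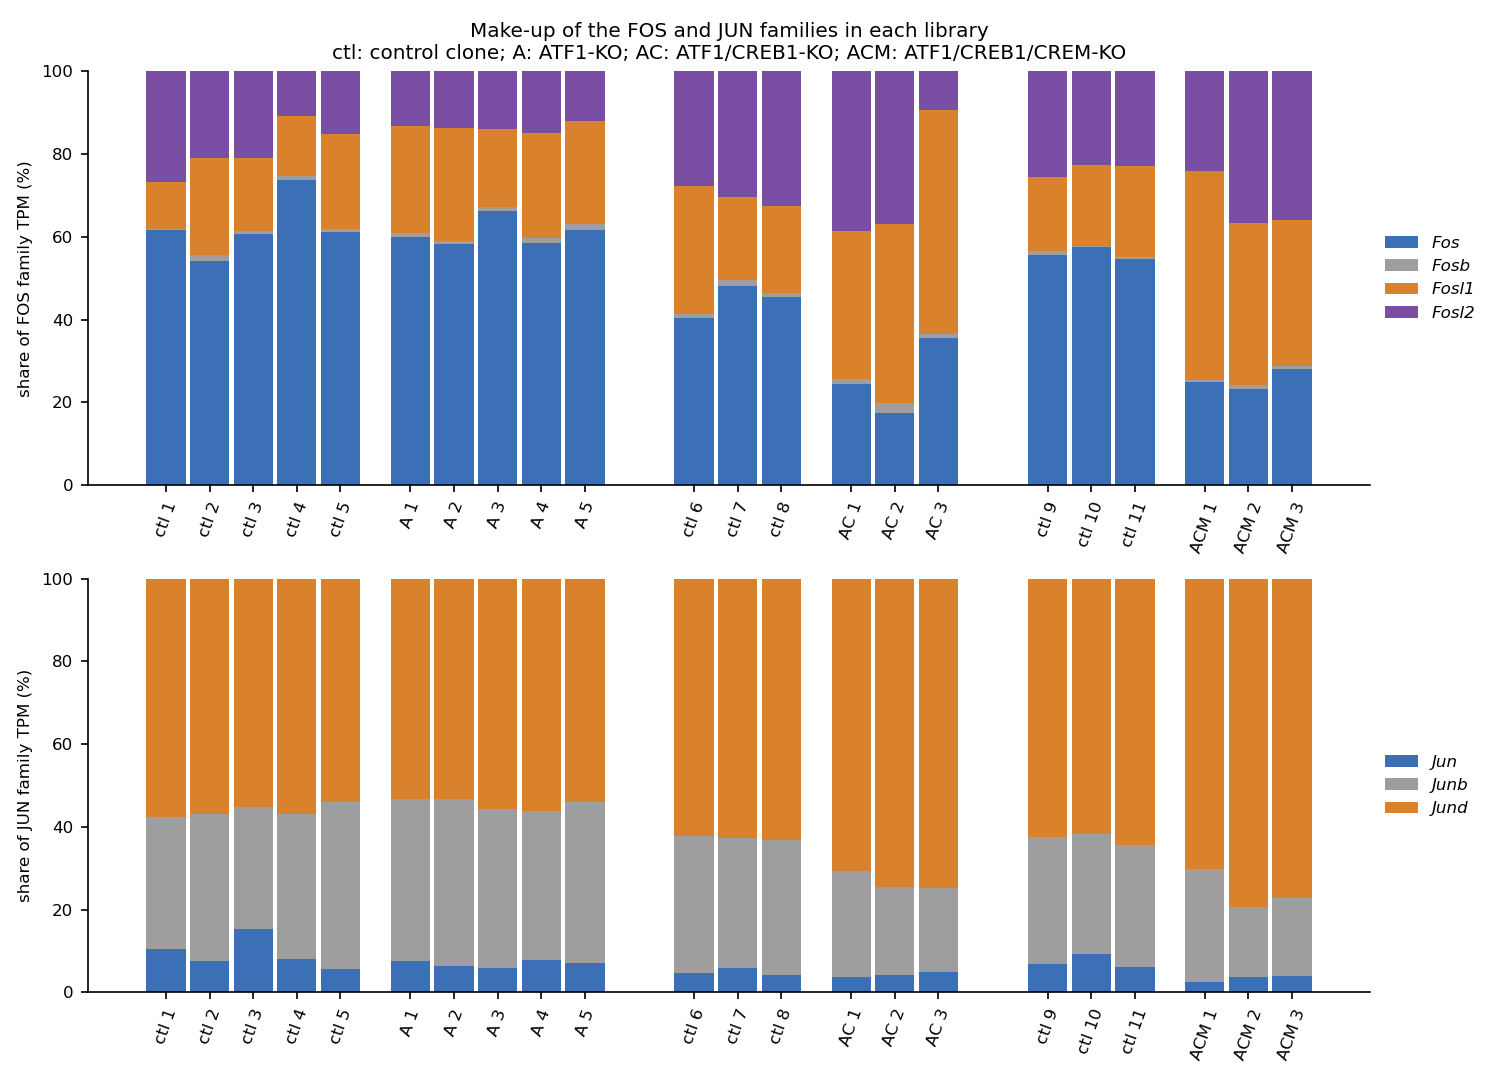
Share (%) of FOS-family TPM (top) and JUN-family TPM (bottom) held by each subunit, 1 stacked bar per library, in the order of the runs. The Fos part of the bars (bottom, blue) is 17.4% to 35.6% in the AC and ACM libraries against 40.5% to 57.5% in the control clones of the same runs, and the Jund part (top, orange) is 70.3% to 79.3% against 61.7% to 64.4%.

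Jun (ENSMUSG00000052684), the JUN subunit that forms the classic AP-1 dimer with FOS, was at 15.52, 25.63 and 23.93 TPM in ATF1/CREB1/CREM-KO. In control clones 9 to 11 it was at 34.22, 55.23 and 35.53 TPM. All 3 knockout libraries were lower than all 3 control clones, of which clone 10 was well above the other 2. The log2 change was -0.91 (SE 0.25, 95% interval -1.50 to -0.31) and missed the threshold (limma adjusted p = 0.0703). With 1 estimate of the spread over all 22 libraries the same change passed it (adjusted p = 0.0166). That was the only 1 of 14 alternatives in which Jun was called in this group, with adjusted p-values up to 0.717. In ATF1/CREB1-KO Jun was at 6.29, 7.95 and 13.62 TPM, around the 8.52, 11.78 and 7.83 TPM of control clones 6 to 8, with a log2 change of -0.06 (SE 0.30, adjusted p = 0.958). In ATF1-KO it was at 50.54 to 66.61 TPM, within the 54.68 to 66.53 TPM of control clones 1 to 5 apart from 1 library on either side, with a log2 change of -0.04 (SE 0.08, adjusted p = 0.916). The 95% interval of that change, -0.23 to 0.15, was the narrowest of any member.

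Jund (ENSMUSG00000071076), the JUN subunit with steady expression, was the most abundant of the 10 factors in all 22 libraries. It was at 448.46, 528.50 and 460.05 TPM in ATF1/CREB1/CREM-KO and at 310.66, 367.53 and 375.68 TPM in control clones 9 to 11. The groups did not overlap. The log2 change of 0.45 (SE 0.11, 95% interval 0.19 to 0.70) missed the threshold by little (limma adjusted p = 0.0503). It was called with a filter at 5 TPM (adjusted p = 0.0452), with median-ratio scaling (adjusted p = 0.0446), and without knockout replicate 1 (adjusted p = 0.0187). These were 3 of 14 alternatives, over which the adjusted p-values were 0.0187 to 0.613. In ATF1/CREB1-KO Jund was at 118.80, 143.38 and 208.74 TPM, against 113.55, 127.16 and 117.36 TPM, so that replicate 1 lay within the control range and the other 2 above it. The log2 change was 0.35 (SE 0.25, adjusted p = 0.701). In ATF1-KO Jund ranged from 401.29 to 480.20 TPM within the control range of 239.58 to 515.18 TPM (log2 change 0.28, adjusted p = 0.722).

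Junb (ENSMUSG00000052837), a JUN subunit and early response gene, was lower in all 3 libraries of ATF1/CREB1-KO than in control clones 6 to 8. Its values were 42.79, 40.79 and 56.42 TPM against 60.84, 64.05 and 60.72 TPM. The log2 change was -0.41 (SE 0.21, 95% interval -0.90 to 0.07, limma adjusted p = 0.590). In ATF1/CREB1/CREM-KO replicate 1 was at 174.07 TPM, above the 151.94 to 172.58 TPM of control clones 9 to 11, and replicates 2 and 3, at 112.72 and 112.44 TPM, were below them. With all 3 the log2 change was -0.34 (SE 0.18, adjusted p = 0.269), and without replicate 1 it was -0.55 and called (adjusted p = 0.00469). In ATF1-KO Junb was at 293.63 to 344.61 TPM inside a control range of 127.68 to 386.15 TPM (log2 change 0.48, SE 0.23, adjusted p = 0.684).

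The JUN family also differed in its make-up, by shares within each library that were not tested. Jund made up 70.3%, 79.3% and 77.1% of JUN-family TPM in ATF1/CREB1/CREM-KO, against 62.5%, 61.7% and 64.4% in control clones 9 to 11. In ATF1/CREB1-KO its share was 70.8%, 74.6% and 74.9%, against 62.1%, 62.6% and 63.1% in control clones 6 to 8. The Junb share was 21.0% ± 5.52 against 29.7% ± 0.811 in run 3 and 22.3% ± 2.79 against 32.5% ± 0.868 in run 2 (SD, n = 3 each). Neither subunit's share overlapped between knockout and control libraries in those runs. Jund and Junb hold most of the family, so these 2 shares are not independent. Of all single genes tested, 34.6% in run 3 and 19.0% in run 2 did not overlap, and no such rate was computed for shares. The Jun share was 3.43% ± 0.868 against 7.42% ± 1.66 in run 3, without overlap, and 4.26% ± 0.579 against 4.89% ± 0.821 in run 2, with overlap (SD, n = 3 each). In ATF1-KO the Jund share was 54.5% ± 1.38 against 56.1% ± 1.52 (SD, n = 5 each), and the groups overlapped. The total of the family was 634 TPM ± 35.4 against 559 TPM ± 53.8 in run 3, and 213 TPM ± 58.3 against 191 TPM ± 10.8 in run 2 (SD, n = 3 each).

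Atf3 (ENSMUSG00000026628), a stress-induced factor that represses as a homodimer and can pair with JUN proteins, was at 8.80, 6.32 and 7.00 TPM in ATF1/CREB1/CREM-KO. The control clones of that run had 9.32, 12.92 and 9.32 TPM. The knockout libraries were all lower, replicate 1 by only a small margin, and the log2 change of -0.46 (SE 0.19, 95% interval -0.90 to -0.01) was not called (limma adjusted p = 0.175). In ATF1/CREB1-KO Atf3 ranged from 2.00 to 5.34 TPM around the 2.72 to 4.40 TPM of its control clones, and in ATF1-KO from 18.33 to 27.20 TPM within 12.80 to 28.53 TPM. Maff (ENSMUSG00000042622), a small MAF protein that lacks an activation domain, was at 5.06, 16.31 and 15.41 TPM in ATF1/CREB1/CREM-KO, against 11.55, 11.45 and 12.30 TPM. Replicate 1 lay far below these control clones and the other 2 replicates above them. The log2 change was -0.09 (SE 0.39, adjusted p = 0.906), and without replicate 1 it was 0.40 and called (adjusted p = 0.0395). In ATF1/CREB1-KO Maff was at 1.21, 4.20 and 3.04 TPM, with 2 of the 3 below the 3.95 to 5.29 TPM of control clones 6 to 8 (log2 change -0.58, SE 0.33, adjusted p = 0.621). Batf3 (ENSMUSG00000026630), a bZIP factor best known from dendritic cells that pairs with JUN proteins, was at 1.40 to 2.84 TPM in ATF1/CREB1/CREM-KO against 1.71 to 4.53 TPM. It was at 5.28 to 8.91 TPM in ATF1/CREB1-KO against 6.06 to 13.24 TPM, and at 1.49 to 4.32 TPM in ATF1-KO against 1.40 to 3.31 TPM. Its adjusted p-values were 0.535, 0.726 and 0.925 in the same order. In ATF1-KO the adjusted p-values of Atf3 and Maff were 0.946 and 0.874, and that of Atf3 in ATF1/CREB1-KO was 0.927, so none of these 3 factors was called in any comparison with all libraries of a run.

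Over the members, replicate 1 of ATF1/CREB1/CREM-KO stood apart from replicates 2 and 3 in several genes, with the highest Fosl1 and Junb and the lowest Fosl2, Jun and Maff of the 3. Without it 6 members were called (Fos, Fosl1 and Fosl2 with Junb, Jund and Maff), and 3317 of 13233 genes in all. Without 1 of the other 5 libraries of run 3, 0 to 2 members and 185 to 489 genes were called. The members' directions in ATF1/CREB1/CREM-KO, apart from Maff, were the same in each of these 6 fits.

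Differences between the knockouts were tested in 1 fit of all 22 libraries, as the change in 1 knockout minus the change in another. Only Fos passed, with a change 1.18 lower on the log2 scale in ATF1/CREB1/CREM-KO than in ATF1-KO (difference -1.18, SE 0.32, 95% interval -1.85 to -0.52, limma adjusted p = 0.0431), where 3.57% of the 13295 genes were called (1.05% higher, 2.53% lower). This call was lost in 13 of the 16 fits that left out 1 library, with differences of -1.32 to -1.10. Fosl1, whose changes were 0.77, 1.07 and 1.21 in the 3 knockouts, gave differences of 0.14 to 0.44 with adjusted p-values of 0.668 to 0.940. The interval for ATF1/CREB1/CREM-KO minus ATF1-KO, -0.35 to 1.22, still allowed a sizeable difference. Jun differed by -0.87 between ATF1/CREB1/CREM-KO and ATF1-KO (95% interval -1.47 to -0.26, adjusted p = 0.120) and by -0.85 between ATF1/CREB1/CREM-KO and ATF1/CREB1-KO (95% interval -1.53 to -0.17, adjusted p = 0.458). Junb differed by -0.90 between ATF1/CREB1-KO and ATF1-KO (95% interval -1.58 to -0.21, adjusted p = 0.180). No member passed in ATF1/CREB1-KO minus ATF1-KO, where 1.46% of genes did, or in ATF1/CREB1/CREM-KO minus ATF1/CREB1-KO, where 0.188% did. At an unadjusted p under 0.05, 15.5% and 8.39% of genes passed in these 2, and the members that did so were Fos and Junb in the first and Jun in the second.

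Jund and Junb had the highest means, in this order, in the control clones of each run, and Fosb the lowest. Jun came next in runs 1 and 3, whereas in run 2 Jun (9.38 TPM ± 2.11), Batf3 (9.04 TPM ± 3.74) and Fos (8.50 TPM ± 1.03) could not be ranked (SD, n = 3 each). Jund (384 TPM ± 102), Junb (243 TPM ± 96.6), Jun (59.3 TPM ± 5.03), Fos (34.6 TPM ± 9.78), Atf3 (21.4 TPM ± 5.62) and Maff (16.2 TPM ± 1.97) were the 6 highest in control clones 1 to 5 (SD, n = 5 each). Fosl2 at 9.98 TPM ± 1.96 and Fosl1 at 9.97 TPM ± 3.73 could not be ranked, followed by Batf3 at 2.40 TPM ± 0.691 and Fosb at 0.454 TPM ± 0.233 (SD, n = 5 each). Neighbours whose ranges overlapped in run 1 were Jund and Junb, and Fos with Atf3, Atf3 with Maff and Fosl2 with Fosl1. Fosl1 reached 14.61 TPM, so its range also overlapped those of Maff (13.95 to 18.96 TPM) and Atf3 (12.80 to 28.53 TPM). In control clones 6 to 8 every member but Batf3 was lower than in control clones 1 to 5, from 15.8% of that mean for Jun to 57.5% for Fosl2. Batf3 was higher there, at 376% of the run 1 mean. These control clones are the ones with 14.2% to 15.1% of TPM in ribosomal protein genes, whose part in the levels was not tested, and they belong to the same unmodified group as the others.

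Genes linked to AP-1 were read from lists by role: related bZIP partners, regulators of AP-1, AP-1 targets and other early response genes. In ATF1-KO and in ATF1/CREB1-KO 0 genes of any of these lists were called. Among related bZIP factors in ATF1/CREB1/CREM-KO, 1 of 9 tested was called higher and 1 lower, where 3.91% of all genes were called higher and 5.26% lower. Mafg, a small MAF protein, rose by 0.51 on the log2 scale (limma adjusted p = 0.0210), from 41.4 TPM ± 2.15 to 59.3 TPM ± 3.32 (SD, n = 3 each). Jdp2, a repressor that pairs with JUN proteins and lies near Fos on the chromosome, fell by 0.48 (adjusted p = 0.0425), from 189 TPM ± 10.7 to 136 TPM ± 16.2 (SD, n = 3 each). Among regulators 1 of 23 was called higher, the p38 kinase gene Mapk14 (log2 change 0.45, adjusted p = 0.0372), and 1 lower, Elk4, a partner of serum response factor at early response promoters (log2 change -0.64, adjusted p = 0.0254). Among AP-1 targets 1 of 17 was called higher and 1 lower. Spp1, which encodes osteopontin, fell from 391 TPM ± 33.5 to 65.2 TPM ± 41.3 (SD, n = 3 each), with a log2 change of -2.84 (adjusted p = 0.0270). Above all control clones lay 2 of the 9 related bZIP factors, 5 of the 23 regulators and 6 of the 17 targets. Below them lay 1, 2 and 4 in the same order. Of all genes tested, 14.5% lay above and 20.2% below. The medians of these 3 lists were 0.09, -0.08 and 0.21, against -0.05 over all genes tested. These single calls did not hold with fewer libraries: those of Mafg, Jdp2, Mapk14 and Elk4 were each lost in 5 of the 6 fits that left out 1 library of run 3, all but the one without knockout replicate 1, at adjusted p-values of 0.0602 to 0.145. That of Spp1 was lost without control clone 9, 10 or 11 or knockout replicate 2 (adjusted p = 0.0642 to 0.110).

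Of 12 other early response genes tested in ATF1/CREB1/CREM-KO, 4 were called lower and 0 higher, where 5.26% of all genes were called lower and 3.91% higher. Below all control clones lay 7 of the 12 and above them 1, where 20.2% and 14.5% of all genes did. Their median log2 change was -0.48, against -0.05 over all genes tested. Nr4a1, an orphan nuclear receptor and CREB target, fell from 40.1 TPM ± 3.11 to 10.5 TPM ± 2.45 (SD, n = 3 each), by 1.85 on the log2 scale (limma adjusted p = 0.00259). Ctgf and Cyr61, the matrix-associated genes now named Ccn2 and Ccn1, fell by 1.46 and 0.87 (adjusted p = 0.0109 and 0.0463), and the zinc finger gene Egr2 fell by 0.91 (adjusted p = 0.0394). Ier3 and Ier2 had changes of 0.57 and 0.10 (adjusted p = 0.333 and 0.717), so the list did not move as a block. The count of genes called lower was 1 without control clone 9 or 11, 2 without control clone 10 or knockout replicate 2 or 3, and 7 without knockout replicate 1. Nr4a1 was called in each of these 6 fits, Ctgf in 4, and Egr2 and Cyr61 only in the one without knockout replicate 1, with adjusted p-values of 0.0795 to 0.151 in the others. In ATF1/CREB1-KO 3 of the 12 tested lay below all control clones and 1 above, where 19.0% of all genes did not overlap in either direction. The changes were -0.95 for Nr4a1, -0.93 for the antiproliferative gene Btg2, -0.80 for Ctgf and 0.73 for Ier3, and 0 were called (adjusted p = 0.368, 0.483, 0.495 and 0.483). In ATF1-KO 10 of 13 early response genes had a positive change, with a median of 0.21 against -0.003 over all genes tested. Of them 0 were called, where 0 of all 13318 genes tested were. Among 5 heat shock genes tested, a sign of general stress, 0 were called in any comparison. In ATF1/CREB1/CREM-KO 4 of the 5 had a positive change. There 2 lay above all control clones and 0 below, where 14.5% and 20.2% of all genes did. These were Dnajb1 and Hspa1b, with log2 changes of 0.37 and 0.36 (limma adjusted p = 0.0542 and 0.0946). The summed level of all 6 listed heat shock genes in that group, 1443.77 to 1591.09 TPM, overlapped the 1466.58 to 1556.60 TPM of control clones 9 to 11. In ATF1/CREB1/CREM-KO Aqp2 was the 1 principal cell marker of 8 tested that was called, lower by 6.34 on the log2 scale (adjusted p = 0.000860). Its log2 changes were 0.56 in ATF1-KO and -0.36 in ATF1/CREB1-KO (limma adjusted p = 0.638 and 0.775). Of markers of other cell types in ATF1/CREB1/CREM-KO, Slc12a3 of the distal tubule rose from 0.0833 TPM ± 0.0513 to 2.44 TPM ± 1.71 (limma adjusted p = 0.0499). Cd68 of immune cells fell from 6.19 TPM ± 1.45 to 2.49 TPM ± 0.557 (adjusted p = 0.0371, SD, n = 3 each). Slc12a3 passed the filter of 1 TPM only through the knockout libraries, so its call is not independent of that filter. Both calls were lost in 5 fits that left out 1 library, and the part of these markers in the AP-1 values was not tested.

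**Figure D4:**
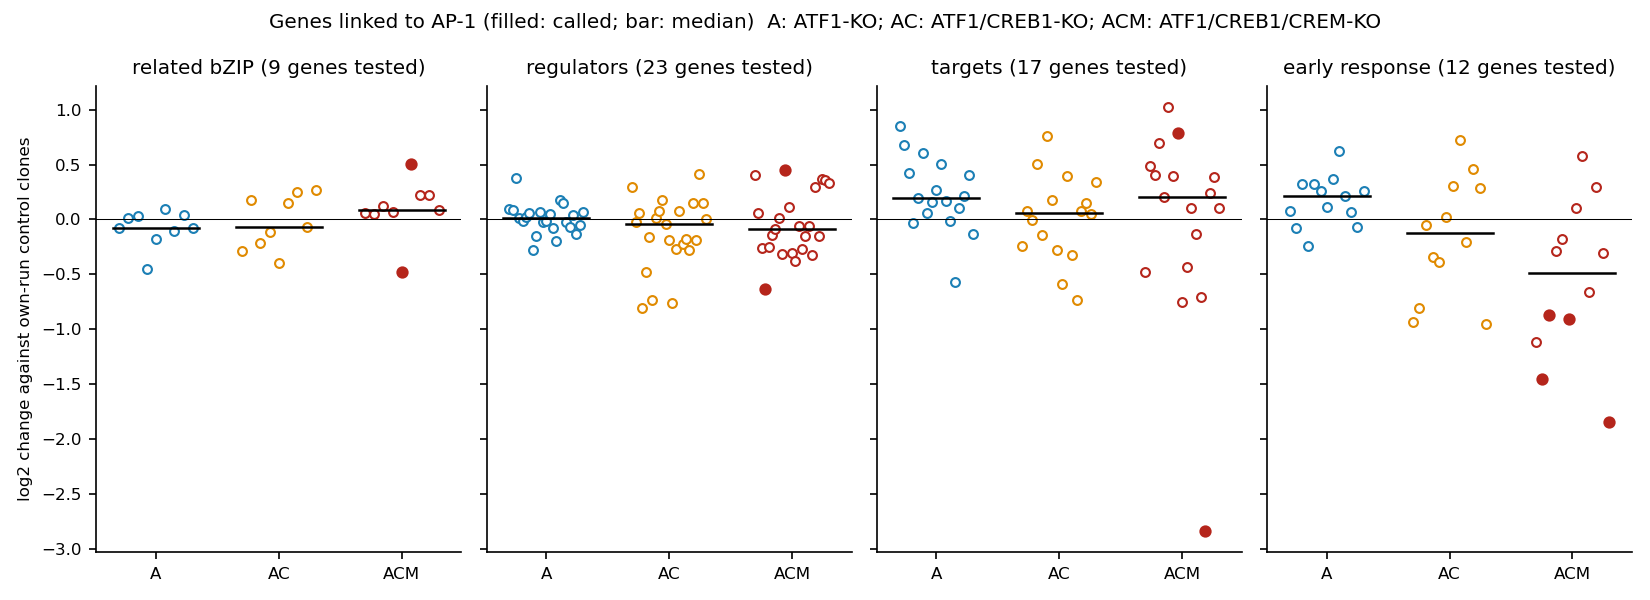
Log2 change against own-run control clones of each tested gene in 4 lists linked to AP-1 (1 point per gene, bar at the median, filled points called) in ATF1-KO (A), ATF1/CREB1-KO (AC) and ATF1/CREB1/CREM-KO (ACM); panel titles give the number tested in ACM. Filled points are in ACM only, and its early response genes have 4 filled points below 0, the lowest being Nr4a1 at -1.85, and a median of -0.48.

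Genes whose pattern over the 22 libraries was most like that of a member were ranked by Pearson correlation of log2(TPM + 1), after subtracting the control clone mean of each run, among 10497 genes at a mean level of 5 TPM or more. The libraries share control clones and composition within a run, so these values are descriptions. The closest to Fos were B4gat1 (r = 0.914), Anapc10 (r = 0.908) and Cdk10 (r = 0.899). The closest to Fosl1 was Il1rn (r = 0.918), which encodes the interleukin-1 receptor antagonist, followed by St14 (r = 0.875) and Cda (r = 0.874). Nomo1 (r = 0.912) was closest to Fosl2 and Scx (r = 0.939), a bHLH factor of tendon, closest to Jun. Closest to Junb was Rps6 (r = 0.916), a ribosomal protein gene, and closest to Jund was Tnfaip8l1 (r = 0.850). For Atf3 it was Mlkl (r = 0.852), for Maff Arhgap31 (r = 0.901) and for Batf3 Inka2 (r = 0.739). The heat shock gene Dnajb1 came 3rd for Jund (r = 0.822). No member was among the 3 closest genes of another member. Between members the highest value was 0.773 for Fosl1 and Jund, followed by 0.722 for Fos and Junb, and the lowest was -0.797 for Fos and Fosl2.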

How the data were processed

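RNA sequencing libraries of mpkCCD cells were grouped by the genotype in the labels. Per the labels' protocols, cDNA was made with a SMARTer Ultra Low kit, tagmented with Nextera XT and sequenced paired-end. The submitters' processing notes name STAR and RSEM, without versions; genome build and annotation are not given in the sources used here. The deposited values are TPM, computed by the authors, so read depth is unknown and counting intervals could not be computed. The labels list 40 samples, of which 22 have columns in the table used; the 18 rescue samples were not analysed here.

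Each knockout was compared with the control clones of its own run with limma 3.58.1 in R 4.3.3 (lmFit, eBayes with trend) on log2(TPM + 1), and genes with a mean under 1 TPM were left out. P-values were adjusted by Benjamini-Hochberg over all genes tested, with a threshold of 0.05. Differences between knockouts came from 1 fit of 6 group means over 22 libraries. The fits were tested on simulated data. All 10 members are named, with the called genes of each list, up to 3 per direction, except 1 called AP-1 target that is counted but not reported here; Btg2, Cyr61, Ier2 and Ier3 were named after their values were seen. The members and lists were chosen with earlier results of these data known. Ddit3 has 2 rows in the table and was left out. Alternatives covered the pseudocount, filter, scaling, variance model, control set and each library. Promoter windows are from RefSeq (GRCm38.p6).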

Additional observations from a re-analysis of the deposited data

Results flagged for a closer look

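The change of Fos differed between 2 knockout groups in a call that most alternatives did not keep. Tested in 1 limma fit over all 22 libraries, the log2 change in ATF1/CREB1/CREM-KO minus that in ATF1-KO was -1.182 (SE 0.32, adjusted p = 0.0431). The call was lost in 16 of 22 alternatives, 13 of them among the 16 fits that left out 1 library, with adjusted p-values of 0.0186 to 0.127 and differences of -1.321 to -1.067 over all 22. In ATF1/CREB1/CREM-KO Fos was lower than control clones 9 to 11 in 3 of 3 libraries, and in ATF1-KO its log2 change was 0.31 with overlapping groups. Each knockout label belongs to 1 run, so run and label cannot be told apart in this difference, other than by the subtraction of own-run control clones. A test for a single library far from the rest was possible in the 20 sets of 5 libraries (10 members in ATF1-KO and in control clones 1 to 5) and marked none.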

How the results depend on the processing

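With all 11 control clones in place of those of the run, 4 members were called in ATF1/CREB1-KO (Fos, Jun, Junb and Maff, all lower, with 4260 genes called in all, against 9 with own-run control clones) and 0 in ATF1/CREB1/CREM-KO (137 genes in all, against 1216). That control set moved the median log2 change of all genes to -0.96 in ATF1/CREB1-KO and to 0.28 in ATF1/CREB1/CREM-KO. With 6 group means over all 22 libraries, 1 member was called in ATF1/CREB1-KO (Fosl1) and 609 genes in all. Leaving out 1 library gave 0 to 6 called members in ATF1/CREB1/CREM-KO, 0 to 1 for the difference ATF1/CREB1-KO minus ATF1-KO (Fos, without ATF1/CREB1-KO replicate 3, adjusted p = 0.0156) and 0 to 1 for ATF1/CREB1/CREM-KO minus ATF1-KO. The last count was 0 with a pseudocount of 0.1 (Fos adjusted p = 0.0613), 0 with no filter (0.0983) and 0 with quantile normalization (0.0791); the cause was not tested. The change of Maff in ATF1/CREB1/CREM-KO reversed from -0.09 to 0.40 without replicate 1, in a range of -0.36 to 0.40 over the fits that left out 1 library. Fosl2 in ATF1/CREB1/CREM-KO was not called with no filter (adjusted p = 0.0961), without the variance trend (0.0551) or with 6 group means (0.128).

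Of 419 alternatives for single members against own-run control clones, 391 kept direction and call or were uncalled in both fits, 17 lost a call, 10 gained one and 1 reversed; in 27 of the 391 the sign of an uncalled change differed. Of 555 for differences between knockouts, 538 kept direction and call or were uncalled in both fits, 16 lost a call and 1 gained one. In 36 of the 538 the sign of an uncalled difference changed. In ATF1-KO 0 members were called under any alternative. Without a filter, 710 genes were called in ATF1/CREB1/CREM-KO, and 0 in ATF1/CREB1-KO. Scaling moved the split of calls in ATF1/CREB1/CREM-KO: 518 of 1216 were higher as deposited, 685 of 1291 with median-ratio scaling and 697 of 1307 with quantile normalization. The same alternatives for the linked genes were added after seeing the data: 0 to 7 early response genes were called lower, and among 14 alternatives Nr4a1 was called in 13, Ctgf in 11, Mafg and Elk4 in 8, Spp1 in 7, Mapk14 in 6, and Jdp2, Egr2 and Cyr61 in 4. Cd68 was called in 6 of 13 and Slc12a3 in 4 of 10.

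ATF1-KO and control clones 1 to 5 share replicate numbers. Same-numbered libraries correlated at -0.103 to 0.0843, and only number 5 correlated best with its own, so the numbers were not taken as pairs. With the replicate block 0 members and 0 genes were called (927 at an unadjusted p under 0.05, against 1014 without it). The other 2 knockouts share no numbers with their control clones. Read depth behind these TPM is unknown, and with 3 libraries a group the calls rest on few values.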
